A study of Mus musculus with 9 samples.

Results

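Myoepithelial cells form the contractile outer layer of the mammary ducts and alveoli. The genes described here are 9 that this layer is known for. Among them are the smooth muscle actins Acta2 and Actg2, the myosin genes Myh11 and Myl9 and the myosin light chain kinase gene Mylk. The others are the actin-binding proteins Cnn1 and Tagln, the oxytocin receptor Oxtr and the basal transcription factor Trp63. All 9 were chosen by symbol, with earlier results of these data known. Each of the 9 was measured by 1 array row that names no other gene, out of 19938 genes in all.

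The series compared RNA of mammary epithelial cell preparations at successive steps of isolation, on 3 arrays per group. All cells came from wild-type C3H female mice aged 8 to 9 weeks and were freed from mammary fat with collagenase. Untrypsinized cells were taken at that point, trypsinized cells after a trypsin digestion, and mock sorted cells after both trypsin and a sham run on a fluorescence-activated cell sorter. Arrays of 1 group are labelled biological replicates, with no animal or culture named, so p-values measure only how far these samples spread, which may be technical in part. The 2 steps share the trypsinized arrays, so their values are given side by side and not as independent results.

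In the mammary gland, oxytocin binds its receptor on myoepithelial cells, calcium rises, and myosin light chain kinase phosphorylates the regulatory light chain so that smooth muscle myosin pulls on actin and milk is ejected. The muscle of vessel walls uses the same actin, myosin and actin-binding genes, while the transcription factor p63, encoded by Trp63, marks basal cells of epithelia. A bulk preparation that holds both cell types therefore measures the contractile genes as a sum. In such samples fewer cells of a type and less RNA per cell cannot be told apart.

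Array medians ran from 345 to 408 in intensity. Precision is limited by having 3 arrays a group. Trypsinized replicate 1 and mock sorted replicate 1 stood apart by lymphocyte genes, whose summed intensity was 11197 and 9773 there and at most 4359 on the other arrays, and the counts are also given without them. Changes are log2 differences of group means on the log2(intensity + 1) scale, with the standard error (SE) and the adjusted p of limma. A gene is said to have risen or fallen at an adjusted p of 0.05 or below. Levels of different genes come from different probes and are not compared. The preparations, labelled epithelial, gave signal from luminal keratins (Krt8 at 13.87 in untrypsinized arrays, as a mean log2 intensity), basal keratins (Krt5 at 12.83 and Krt14 at 12.79), and the vessel genes Pecam1 and Rgs5, all 5 named here as defining markers after their values were seen.

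All 9 genes fell from untrypsinized to mock sorted cells, and every one of them had its 3 groups in the same order without overlap, highest in untrypsinized, lower in trypsinized and lowest in mock sorted cells. Of all genes, 18.0% fell and 21.0% rose between untrypsinized and mock sorted cells, and 7.78% were ordered without overlap in this way. The 9 genes were chosen with results known, so these shares are given beside them and are no test. The falls spanned a wide range, from 6.28% for Acta2 to 41.2% for Mylk. Mylk alone also passed the minimum of 1.5-fold that the study's design text sets, as did 3.40% of all genes in that direction. The call of Acta2 was lost without any 1 of the 9 arrays (adjusted p = 0.0531 to 0.111), while those of the other 8 genes were kept in each of these fits.

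Mylk encodes myosin light chain kinase, the enzyme that switches smooth muscle myosin on, and also a longer kinase of non-muscle cells such as endothelium. Which product its row measured is not given in the sources used here. For Mylk the intensities were 2626, 2540 and 2773 in untrypsinized, 1996, 2146 and 2036 in trypsinized, and 1519, 1603 and 1541 in mock sorted arrays. The lowest array of each earlier group lay well above the highest of the next. Its log2 change was -0.36 (SE 0.05, adjusted p = 0.00187) with trypsin, -0.41 (SE 0.05, adjusted p = 0.00165) with the mock sort, and -0.77 (SE 0.05, adjusted p = 1.11e-05) over both.

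Myl9, the regulatory light chain that this kinase phosphorylates, had intensities of 8421, 8718 and 8504 in untrypsinized, 6799, 7195 and 7037 in trypsinized, and 6052, 6050 and 6131 in mock sorted arrays. It fell by 0.29 (SE 0.04, adjusted p = 0.00147) with trypsin and by 0.49 (SE 0.04, adjusted p = 2.51e-05) over both steps. The mock sort accounted for a change of -0.21 (SE 0.04, adjusted p = 0.0128). Myh11, the smooth muscle myosin heavy chain, read 5561, 5480 and 5736, then 4985, 5113 and 5045, then 4472, 4513 and 4515 in the same order of groups. Its change over both steps was -0.31 (SE 0.03, adjusted p = 0.000215), made of -0.15 with trypsin and -0.17 with the mock sort. The mock sorted arrays of both genes lay close together, with an SD of 0.01 on the log2 scale (n = 3).

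Cnn1, calponin, an actin-binding protein that restrains the myosin motor, read 7283, 7102 and 7084 in untrypsinized, 6239, 6549 and 6193 in trypsinized, and 5578, 5807 and 5787 in mock sorted arrays. It fell by 0.32 over both steps (SE 0.04, adjusted p = 0.000367). Its trypsin step passed the test (log2 change -0.18, adjusted p = 0.0117) and its mock sort step did not (log2 change -0.14, adjusted p = 0.0741), a contrast between the steps that was not itself tested. Tagln, transgelin, which binds actin filaments in smooth muscle, read 6114, 6281 and 6318, then 5300, 5525 and 5381, then 4632, 4847 and 4812. It fell by 0.39 over both steps (SE 0.04, adjusted p = 0.000107), by 0.21 with trypsin and by 0.18 with the mock sort.

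Over both steps the actins had the smallest changes of the 9 genes. Acta2, smooth muscle alpha actin, read 14566, 14367 and 14202 in untrypsinized, 13857, 13863 and 13859 in trypsinized, and 13504, 13555 and 13366 in mock sorted arrays. Its groups did not overlap, yet its changes were -0.05 and -0.04 at the steps (adjusted p = 0.224 and 0.563) and -0.09 over both (SE 0.03, adjusted p = 0.0386). Actg2, smooth muscle gamma actin, read 5079, 5309 and 5153, then 4883, 5078 and 4828, then 4439, 4677 and 4650. Its change was -0.07 with trypsin (adjusted p = 0.206), -0.10 with the mock sort (adjusted p = 0.217) and -0.18 over both (SE 0.04, adjusted p = 0.00889). Its trypsinized replicate 2 came within 1 intensity unit of the lowest untrypsinized array.

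Muscle actin genes are near-identical in coding sequence, and how far a row of 1 actin catches RNA of another is not given in the sources used here. On each array the brightest row read 19128 to 20372, and Acta2 was among the bright rows. The 193 genes with a mean log2 intensity of 13 or more had changes between -0.37 and 0.34 over both steps, against -2.91 to 1.90 for all genes. Whether signal near the top of the range understates the change of Acta2 was not tested.

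Oxtr, the oxytocin receptor, read 2726, 2538 and 2572 in untrypsinized, 2487, 2398 and 2413 in trypsinized, and 1970, 2039 and 2002 in mock sorted arrays. In the values as deposited, most of its change came with the mock sort, at -0.28 (SE 0.04, adjusted p = 0.00475). The change with trypsin was -0.10 (SE 0.04, adjusted p = 0.0905), and over both steps Oxtr fell by 0.38 (SE 0.04, adjusted p = 0.000192). With every array set to a common median the changes were closer, -0.24 with trypsin (adjusted p = 0.0151) and -0.30 with the mock sort (adjusted p = 0.0217). Whether the steps differed was not tested.

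Trp63, the basal factor p63, read 1531, 1527 and 1462 in untrypsinized, 1385, 1384 and 1399 in trypsinized, and 1250, 1314 and 1368 in mock sorted arrays. Neither step alone passed the test, with changes of -0.12 (SE 0.04, adjusted p = 0.0738) and -0.08 (SE 0.04, adjusted p = 0.356). Over both it fell by 0.20 (SE 0.04, adjusted p = 0.00655). Its mock sorted arrays were the most spread among the 9 genes, at 10.36 ± 0.07 (mean ± SD of log2 intensity, n = 3).

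**Figure D1:**
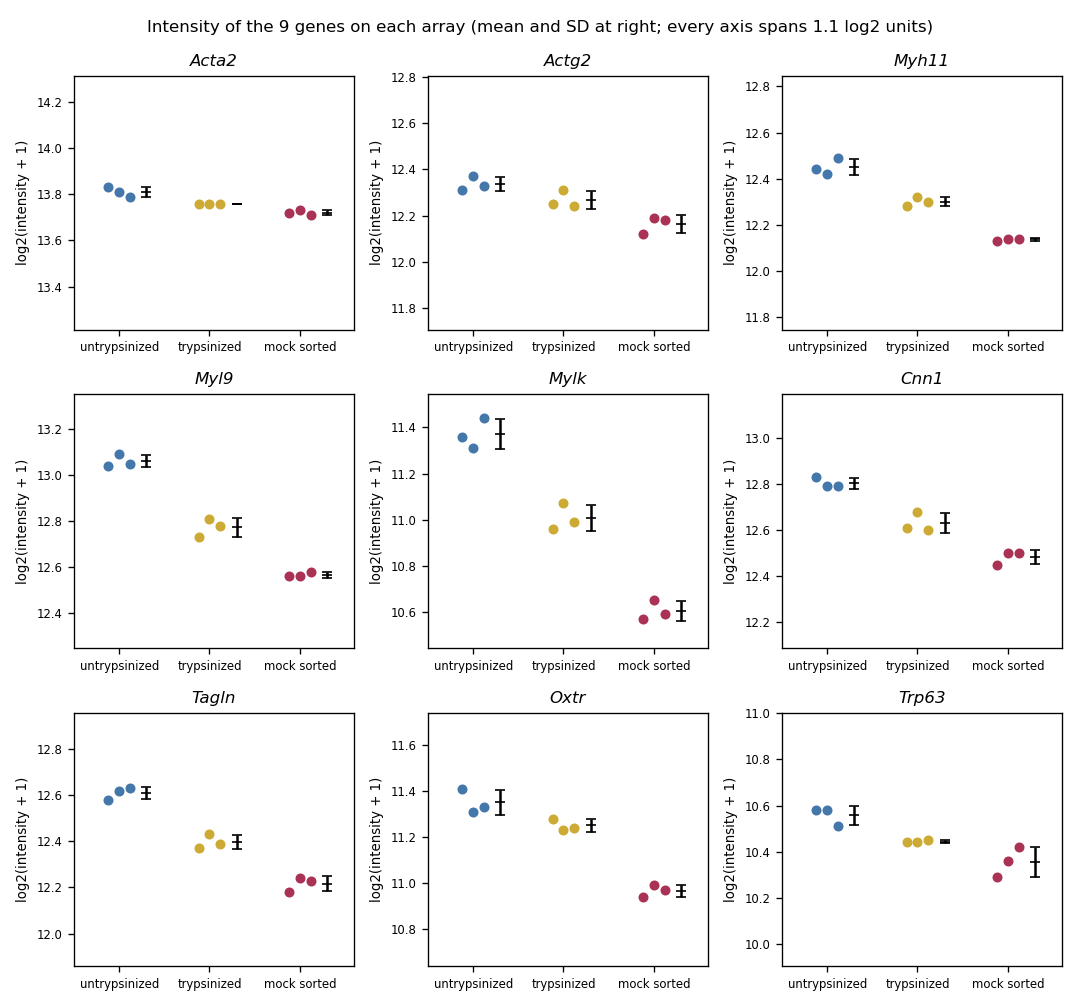
Log2(intensity + 1) of the 9 genes on each array, with the mean and SD of the 3 arrays of a group at the right of its points; every vertical axis spans the same range in log2 units. All 9 genes step down at both steps without overlap, from a small shift in Acta2 (13.81 to 13.72) to a large one in Mylk (11.37 to 10.60).

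At the trypsin step 5 of the 9 genes fell, Mylk, Myl9, Tagln, Cnn1 and Myh11, against 11.5% of all genes, while 13.9% of all genes rose. All 5 are contractile, and the 4 that did not pass were the actins, Oxtr and Trp63. Without trypsinized replicate 1, Myh11 did not pass (adjusted p = 0.0539). All 9 genes had lower, non-overlapping trypsinized arrays, as 19.4% of all genes did. Mylk changed most and stayed under 1.5-fold, a size that 0.933% of all genes reached among those that fell.

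At the mock sort step 5 of the 9 fell, Mylk, Oxtr, Myl9, Tagln and Myh11, against 4.20% of all genes, and all 9 had lower, non-overlapping mock sorted arrays, as 14.3% of all genes did. Mylk again changed most and stayed under 1.5-fold, which 1.17% of all genes passed downward. Mylk and Oxtr kept their calls without any 1 array. The count was 3 without trypsinized replicate 1, mock sorted replicate 1 or mock sorted replicate 3, and 2 without trypsinized replicate 2, trypsinized replicate 3 or mock sorted replicate 2. Myh11 and Tagln lost their calls in each of these fits (adjusted p of at most 0.0969), and Myl9 in those with a count of 2. With the replicate number as a block, which pairs these arrays, Myh11 also missed the threshold (adjusted p = 0.0621). Of all genes, 214 to 281 changed by at least 1.5-fold at this step without 1 array, against 238 on all 9.

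The size of each change depended on how arrays are scaled, and its sign did not. Setting every array to a common median moved the median of all genes at the trypsin step from 0.04 to -0.09. Under this scaling all 9 genes fell at that step, where 28.4% of all genes fell in place of 11.5%. At the mock sort 2 fell, Mylk and Oxtr, as did 4.07% of all genes. Over both steps all 9 fell, and 34.1% of all genes did while 6.19% rose. Relative to the median of all genes, the 7 contractile genes had a median change of -0.22 with trypsin and -0.38 over both steps, the same under both scalings. After quantile normalization these were -0.12 and -0.28.

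**Figure D2:**
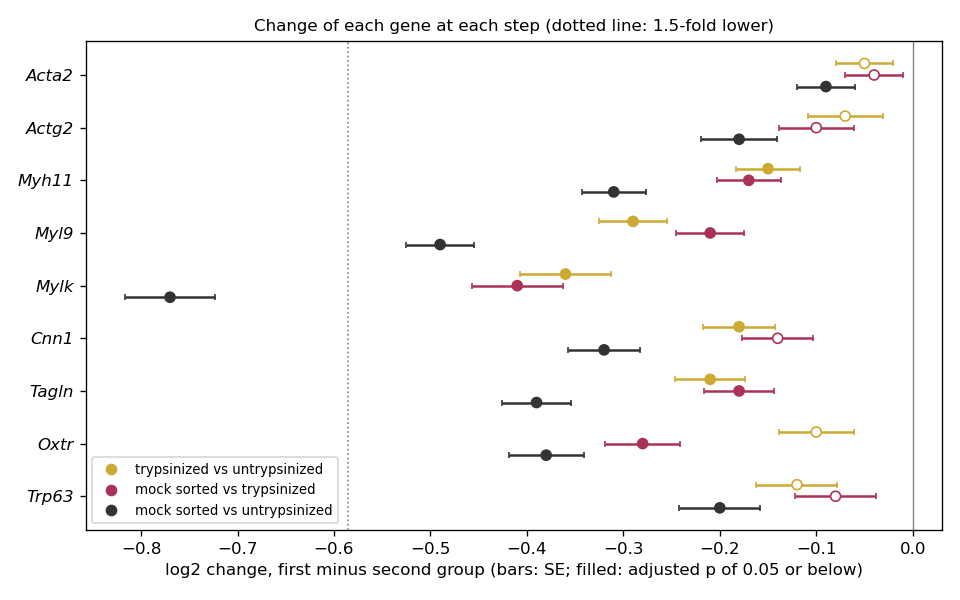
Log2 change of the 9 genes with its SE in the 3 comparisons; filled points passed an adjusted p of 0.05, and the dotted line marks 1.5-fold lower. Mylk over both steps (-0.77) is the single point past the dotted line, and every point lies below 0.

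The contractile genes, which vessel muscle shares, were next set against basal genes of epithelium. The latter were Trp63 and 12 measured genes of a list of 13, among them the keratins Krt5, Krt14, Krt15 and Krt17, the cadherin Cdh3 and the hemidesmosome collagen Col17a1. The 7 contractile genes had a median change of -0.32 over both steps and these 13 genes one of -0.09, a difference of -0.24. At the trypsin step the medians were -0.18 and 0.02. At the mock sort they were closer, -0.17 and -0.10, and their difference of -0.07 became -0.11 without trypsinized replicate 1 and mock sorted replicate 1 together. These differences are taken within arrays, so scaling to a common median leaves them as they are, and they carry no p because the genes were chosen with results known.

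Array by array, the median deviation from each gene's own mean was 0.16 to 0.19 for contractile genes in untrypsinized, -0.03 to 0.02 in trypsinized and -0.19 to -0.15 in mock sorted arrays. For the basal genes it was -0.01 to 0.07, then 0.03 to 0.05, then -0.11 to -0.03. The contractile minus basal value was 0.10 to 0.20 in untrypsinized, -0.06 to -0.02 in trypsinized and -0.13 to -0.09 in mock sorted arrays, without overlap between groups. Its zero is set by centring each gene on its own mean, so the per-array values show the spread behind the differences above and add no result of their own. The classes were not cleanly apart by gene. Trp63 changed more than the actins over both steps, and 1 basal gene lay below the contractile median.

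That gene was Irx4, a homeobox transcription factor of the basal layer, which fell by 0.48 over both steps (SE 0.05, adjusted p = 0.000181). Trim29 fell by 0.16 and Lamb3, a laminin-332 chain, by 0.16, while Fermt1, an integrin activator of epithelial cells, rose by 0.30 (SE 0.05, adjusted p = 0.000674) and Bnc1 rose by 0.22. Of the 12 listed genes 3 fell, 2 rose and 7 did not pass. 1 of the rises was lost without untrypsinized replicate 1, mock sorted replicate 2 or mock sorted replicate 3. The keratins that define the layer were among those 7, with changes of -0.09 for Krt5, -0.05 for Krt14 and -0.01 for Krt17 (adjusted p = 0.111, 0.294 and 0.824). Lamb3, Bnc1 and the keratins are named after their values were seen. With a common median 8 of the 12 fell and 1 rose, beside 34.1% and 6.19% of all genes. At the mock sort, as deposited, 11 of the 12 had a change below 0. Of them 1 passed, a call lost in 7 of the 9 fits without 1 array, and 4.20% of all genes fell. Without overlap 7 of the 12 lay lower there and 1 higher, and with trypsin 1 lower and 3 higher. Of all genes 14.3% lay lower without overlap at the mock sort and 19.4% with trypsin. No share of all genes is given for those that lay higher, so these counts have nothing to be read against.

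**Figure D3:**
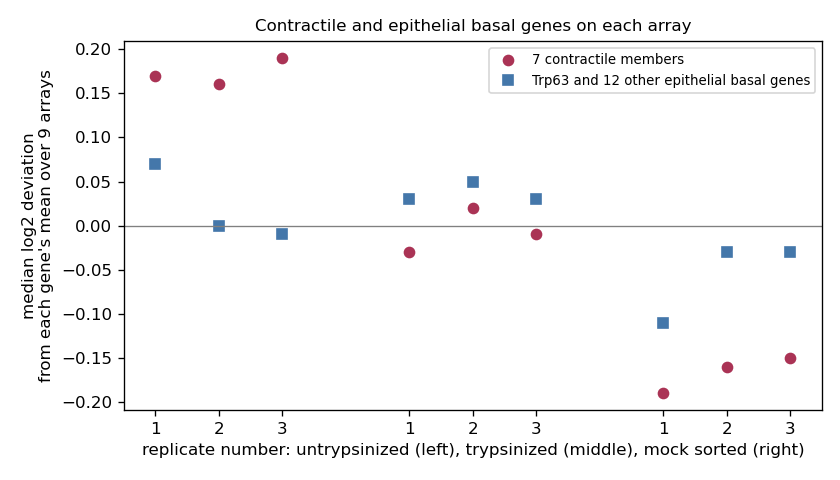
Median log2 deviation from each gene's mean over the 9 arrays, for the 7 contractile genes (circles) and for Trp63 with 12 other epithelial basal genes (squares), on each array. The circles drop from 0.16 to 0.19 in untrypsinized to -0.19 to -0.15 in mock sorted arrays and the squares from -0.01 to 0.07 to -0.11 to -0.03, with zero set by the centring.

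Further genes of the smooth muscle apparatus were examined. Of 16 listed, 11 fell over both steps, 1 rose and 4 did not pass, with a median change of -0.32. Among all genes 18.0% fell and 21.0% rose. Synpo2, an actin-bundling protein, fell by 1.33 (SE 0.07, adjusted p = 5.63e-06), Ppp1r14a, an inhibitor of myosin phosphatase, by 1.28 (SE 0.07) and Lmod1, leiomodin, by 0.77 (SE 0.05). The 4 that did not pass were Vcl, Actn1, Tln1 and Smtn, with changes of 0.00 to 0.06, and the 1 that rose was Ppp1r12b, a myosin phosphatase subunit, at 0.30. These 5 were named after their values were seen. At the trypsin step 9 of the 16 fell and 1 rose, beside 11.5% and 13.9% of all genes. At the mock sort 6 fell, beside 4.20% of all genes. Leaving out any 1 of the 9 arrays, 3 to 5 fell there. The count was 3 without trypsinized replicate 1, trypsinized replicate 2 or mock sorted replicate 3.

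The non-muscle relatives of the contractile genes, which most cells use for shape and movement, gave a median change of 0.03 over both steps. Of 10 measured, 3 fell and 1 rose, beside 18.0% and 21.0% of all genes. Leaving out any 1 of the 9 arrays, 2 fell. Myh10, a non-muscle myosin heavy chain, fell by 0.31 (SE 0.04, adjusted p = 0.00101), Cnn2, a calponin of non-muscle cells, fell by 0.30 and Myh14, a non-muscle myosin heavy chain of epithelia, rose by 0.34 (SE 0.04, adjusted p = 0.000281). With a common median the list's median was -0.12 and 4 fell, beside 34.1% of all genes. Relative to all genes it was -0.02 under both.

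Among regulators of the programme, Myocd, myocardin, a coactivator that drives smooth muscle genes through the serum response factor, fell by 1.19 over both steps (SE 0.07, adjusted p = 1.13e-05). It fell by 0.78 with trypsin (SE 0.07, adjusted p = 0.000538), and its change with the mock sort was -0.41 (adjusted p = 0.0162). That last call was lost without 5 of the 6 arrays compared, all but trypsinized replicate 1. Fhl2 rose by 0.30 and Tead1 fell by 0.19, and the rise of Fhl2 was lost with a common median (adjusted p = 0.0840). Srf, which encodes the factor itself, was named after its values were seen, with a change of 0.05 (adjusted p = 0.334). In all 2 of the 7 listed regulators fell and 1 rose, beside 18.0% and 21.0% of all genes. The rises numbered 2 without trypsinized replicate 1 or trypsinized replicate 2. Relative to all genes the list's median change was 0.00.

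The serum response factor binds a short element named the CArG box, which has 6 inner bases that are A or T. Because the contractile genes moved together, the 250 bases before the listed start were searched for it in the RefSeq-based promoter table of GRCm38.p6, which held 5 of the 9 genes, Acta2, Cnn1, Mylk, Myl9 and Oxtr. A box was present in 1 of the 5, Myl9, and in 1.47% of 32851 promoters. A looser form with 1 G or C among the inner bases also occurred, and counting both, Myl9 and Acta2 had a match, as did 8.59% of promoters. The box reads alike on both strands, so a search of 1 strand covers both. The stretches that hold these matches are shown with the matches in capitals, all 5′ to 3′ on the strand of the gene. Myl9 (chr2:156775214-156775407, plus strand) has the box starting 161 bases and the looser form 99 bases before the listed start. Acta2 (chr19:34255438-34255467 and chr19:34255388-34255417, minus strand) has looser forms 84 and 34 bases before it.
Myl9: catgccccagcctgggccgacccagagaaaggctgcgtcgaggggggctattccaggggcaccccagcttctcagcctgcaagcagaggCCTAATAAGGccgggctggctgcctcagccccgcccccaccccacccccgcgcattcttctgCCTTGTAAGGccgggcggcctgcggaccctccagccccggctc
Acta2, farther match: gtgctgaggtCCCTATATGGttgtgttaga
Acta2, nearer match: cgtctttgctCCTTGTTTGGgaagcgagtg
Of the 5 genes with a promoter in the table, Myl9 had the second largest change over both steps and Acta2 the smallest. These letters describe the sequence, and binding was not measured.

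Of 17 measured genes listed with oxytocin signalling, 10 fell over both steps, 4 rose and 3 did not pass, at a median of -0.17. Among all genes 18.0% fell and 21.0% rose. Avpr1a, the vasopressin receptor of vessel muscle, fell by 0.65 (SE 0.06, adjusted p = 0.000151) and Cacna1c, the pore of the L-type calcium channel, fell by 0.60 (SE 0.05, adjusted p = 5.52e-05). Itpr3, a calcium release channel of the endoplasmic reticulum, rose by 0.46 (SE 0.05, adjusted p = 5.36e-05). With a common median 13 fell and 1 rose, beside 34.1% and 6.19% of all genes. At the trypsin step 6 fell and 3 rose, beside 11.5% and 13.9% of all genes. There a common median gave 12 and 1, beside 28.4% and 3.74% of all genes. At the mock sort 2 fell, Avpr1a and Cacna1c, beside 4.20% of all genes. Each lost its call without most single arrays of that comparison, which left at most 1 called. Without untrypsinized replicate 1 or untrypsinized replicate 3 the count was 3.

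Markers of vessel cells and of other cell types fell alongside the contractile genes. Of 16 mural genes, which mark pericytes and vessel smooth muscle, all 16 fell over both steps at a median change of -1.05. Gucy1a1 and Gucy1b1, subunits of the nitric oxide receptor, fell by 1.84 (SE 0.07) and 1.59 (SE 0.07), and Kcnj8, a potassium channel of pericytes, fell by 1.63 (SE 0.07). The summed intensity of the list was 23145 to 25525 in untrypsinized, 18446 to 18598 in trypsinized and 11535 to 12473 in mock sorted arrays, and none of its markers was listed at 0. Their part in the fall of the contractile genes was not tested.

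All 12 endothelial genes also fell, at a median of -1.58, with Tek, the angiopoietin receptor, at -2.08 (SE 0.08), Cldn5 at -1.90 (SE 0.08) and Esam at -1.69 (SE 0.07). Their sum was 32036 to 37053 in untrypsinized, 25034 to 25302 in trypsinized and 11063 to 13450 in mock sorted arrays. The 7 contractile genes summed to 49650 to 49796, 44059 to 45470 and 40197 to 41052. Whereas the endothelial genes ran from -2.08 to -1.20 and the mural genes from -1.84 to -0.32, the 9 genes ran from -0.77 to -0.09, so Mylk, Myl9, Tagln and Oxtr lay within the range of the mural genes, Cnn1 (-0.32) was level with its upper end and the other 4 lay above it.

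The fall was not limited to vessel markers. Of 4 Schwann cell genes 3 fell and 1 rose, at a median of -2.02, and of 6 fibroblast genes 5 fell, at a median of -0.44. Of 6 adipocyte genes 3 fell (median -0.11, lowest -2.19), of 6 skeletal muscle genes 3 fell (median -0.10, lowest -2.07) and of 5 macrophage genes 2 fell (median -0.16). Of all genes 18.0% fell. Without 1 array the numbers that fell were 4 to 5 for fibroblast, 2 to 3 for skeletal muscle and 1 to 2 for macrophage genes. The part of these cell types in the fall of the contractile genes was likewise not tested.

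Luminal epithelial genes had a median change of 0.13, and 6 of 11 rose and 1 fell over both steps, where 21.0% of all genes rose. The luminal claudins Cldn4 and Cldn3 rose by 0.26 and 0.25 and the estrogen receptor Esr1 rose by 0.21. With a common median the 6 rises were lost and the median was -0.02. The lymphocyte sum ranged from 2420 to 2598 in untrypsinized, 4122 to 11197 in trypsinized and 3741 to 9773 in mock sorted arrays. Without trypsinized replicate 1 and mock sorted replicate 1, a choice made after seeing the data, 1 of the 9 genes fell at the mock sort, Mylk, and 4 fell with trypsin, without Myh11. All 9 changes stayed below 0.

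**Figure D4:**
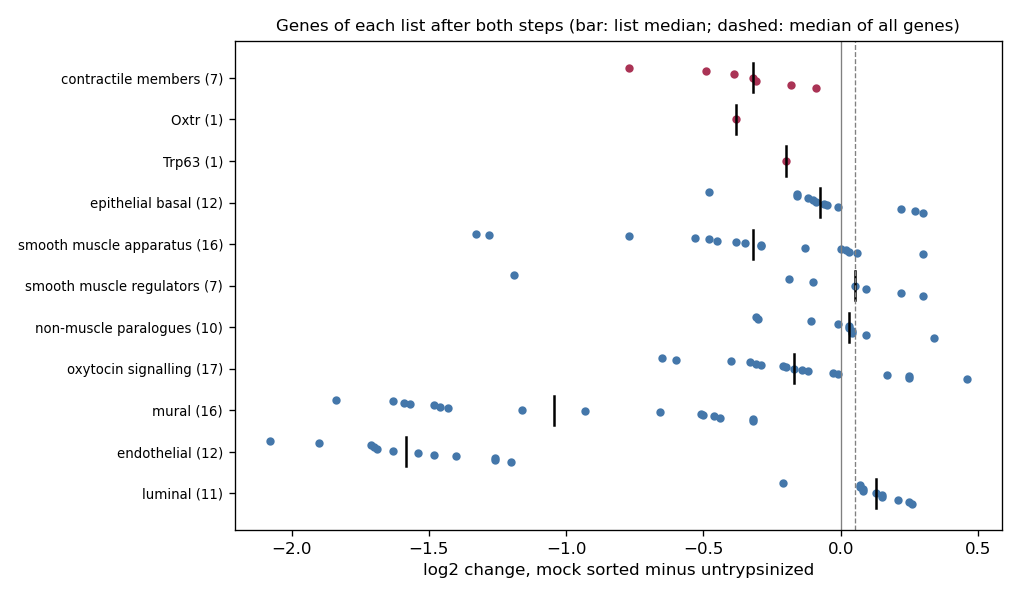
Log2 change of each gene, mock sorted minus untrypsinized, by list, with the list median as a bar and the median of all genes as a dashed line. Medians run from -1.58 for endothelial and -1.05 for mural through -0.32 for contractile and -0.07 for epithelial basal to 0.13 for luminal genes. The contractile genes (-0.77 to -0.09) overlap both the mural (-1.84 to -0.32) and the luminal range (-0.21 to 0.26).

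The patterns most like 2 of the 9 genes were ranked by Pearson correlation of log2 intensity over the 9 arrays, which share the group differences, among 15892 genes that are not members. Most like Acta2 were Pink1 (r = 0.993), Kank4 (r = 0.990), Eci1 (r = 0.987), Irx4 (r = 0.986) and Tpm2 (r = 0.984), a tropomyosin that fell by 0.38 over both steps. Most like Trp63 were Cyhr1 (r = 0.990), Sema3c (r = 0.980), Ext2 (r = 0.980), Vnn1 (r = 0.980) and Efcab1 (r = 0.978). A correlation over 0.95 was reached by 216 genes with Acta2 and by 26 with Trp63.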

How the data were processed

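RNA of 9 mouse mammary cell preparations was measured on Affymetrix whole-transcript arrays, 3 per group. The values are linear intensities made and deposited by the authors. For background correction, probe summary, scaling and genome build, the method is not given in the sources used here. Limma appears in the submitters' processing notes. Of 35512 rows, 21789 had 1 symbol in the platform annotation, 1621 had several and 12102 were not listed there. Of the single symbols, 21698 were updated by gene number from the RefSeq table of GRCm38.p6. The row with the highest mean stood for a gene, which left 19938 genes.

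Values were taken as log2 of the intensity plus 1. All genes and arrays entered one limma 3.58.1 model (R 4.3.3) that estimates each group's mean, with Benjamini-Hochberg adjustment over the 19938 genes, and it was tested on simulated data. A gene rose or fell at an adjusted p of 0.05 or below. The submitters' design text also asks for 1.5-fold and does not say whether p was adjusted. Members and lists were chosen with earlier results of these data known. Other genes named are the 3 with the smallest p in their list for the comparison described, with exceptions stated. Deviations from the group means of same-numbered arrays correlated at 0.53, 0.29 and 0.29 between the trypsinized and the mock sorted group. For mock sorted replicates 1, 2 and 3 the highest correlation with a trypsinized array of another number was -0.31, 0.16 and 0.13. Same-numbered arrays of these groups were therefore read as paired, from the values and not the labels. The pair at 0.53 is the lymphocyte-rich one, and whether lymphocyte genes carry its correlation was not tested. The main model leaves this pairing out, and only the alternative with a replicate block includes it. Alternatives covered scaling, pseudocount, dim genes, rows per gene, variance model, array weights, arrays in the fit, a replicate block, thresholds and leaving out arrays.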

Additional observations from a re-analysis of the deposited data

How the results depend on the processing

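All 513 changes of the 9 genes under an alternative were below 0, and 467 kept their side of the threshold. With arrays set to a common median 9 of the genes fell with trypsin and 2 with the mock sort, beside 28.4% and 4.07% of all genes. In a fit of only the 6 arrays compared 3 fell with the mock sort, and leaving out 1 array at a time gave 2 to 5. Without both lymphocyte-rich arrays, a setting chosen after seeing the data, 1 fell with the mock sort and the contractile minus basal difference there was -0.11. With a minimum of 1.5-fold, limma called 0 members lower with trypsin, 0 with the mock sort and 1 over both, and the counts were the same at an unadjusted p. With no minimum fold 5055, 931 and 7777 of all genes changed, against 292, 238 and 892. With a replicate block 5, 4 and 8 members fell in the 3 comparisons, and 378, 240 and 954 of all genes changed by at least 1.5-fold. In the mock sort fit of only 6 arrays 225 of all genes did. For fits with a block or fewer arrays, the share of all genes that fell with no minimum fold was not counted. Beside Myh11 at the mock sort, the block ended the call of Acta2 over both steps (adjusted p = 0.0643) and no other member's call. Untrypsinized arrays were not read as paired, with same-number correlations of -0.04 to 0.11 with trypsinized and 0.06 to 0.32 with mock sorted arrays. The cause of these shifts was not tested.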
